A study of Homo sapiens with 6 samples.

Results

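The genes described here are 10 genes of MHC class I antigen presentation, HLA-B, B2M, TAP1, TAP2, TAPBP, NLRC5, PSMB8, PSMB9, PSMB10 and ERAP2. They were taken by gene name from the deposited FPKM values of 12659 genes, and each name occurred once. FPKM scales read fragments by transcript length and by the size of the library, so levels can be set side by side between genes. Polyadenylated RNA was sequenced from NCI-H1650Re, labelled post-SCLC, and from NCI-H1650, labelled pre-LUAD, with 3 libraries of each line and no treatment named. SCLC is read here as small cell lung cancer, and the sample titles do not state a transformation. NCI-H1650 is an established human lung adenocarcinoma line with an activating EGFR deletion. The labels give the same cell line name for all 6 libraries, do not say how NCI-H1650Re was derived or whether it is a clone, and do not say whether replicates came from separate cultures. The p-values below therefore measure only the spread between these libraries, which may be technical.

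MHC class I molecules show fragments of a cell's own proteins to CD8 T cells. The proteasome cuts the proteins, in its immunoproteasome form with the exchanged subunits PSMB8, PSMB9 and PSMB10. The TAP1 and TAP2 transporter brings the peptides into the endoplasmic reticulum, where ERAP2 trims them and tapasin (TAPBP) helps to load them on a heavy chain such as HLA-B joined to beta-2 microglobulin (B2M). NLRC5 is the transactivator of the class I genes, and interferon gamma raises most of these genes, in part through IRF1. Low class I expression is well known in small cell lung cancer.

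In NCI-H1650Re, 5 of the 10 genes were lower than in NCI-H1650 and none was higher. The 5 were NLRC5, PSMB10, ERAP2, TAPBP and TAP2, with mean levels in NCI-H1650Re at 31.0%, 49.1%, 48.4%, 63.8% and 63.7% of those in NCI-H1650. The test was limma on log2(FPKM + 1) across the 11764 genes whose mean reached 1 FPKM in NCI-H1650Re or NCI-H1650, with Benjamini-Hochberg adjustment at 0.05. Of all genes tested, 30.5% changed by the same rule, 13.9% lower and 16.6% higher in NCI-H1650Re. All 10 genes passed the filter, and none was listed at 0 in any library. The median log2 change of the 10 was -0.62, against 0.03 over all genes tested. For the same 5 genes every NCI-H1650Re library lay below every NCI-H1650 library, a pattern that 21.0% of all tested genes showed (26.3% showed the opposite), and the other 5 genes overlapped between the lines.

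**Figure D1:**
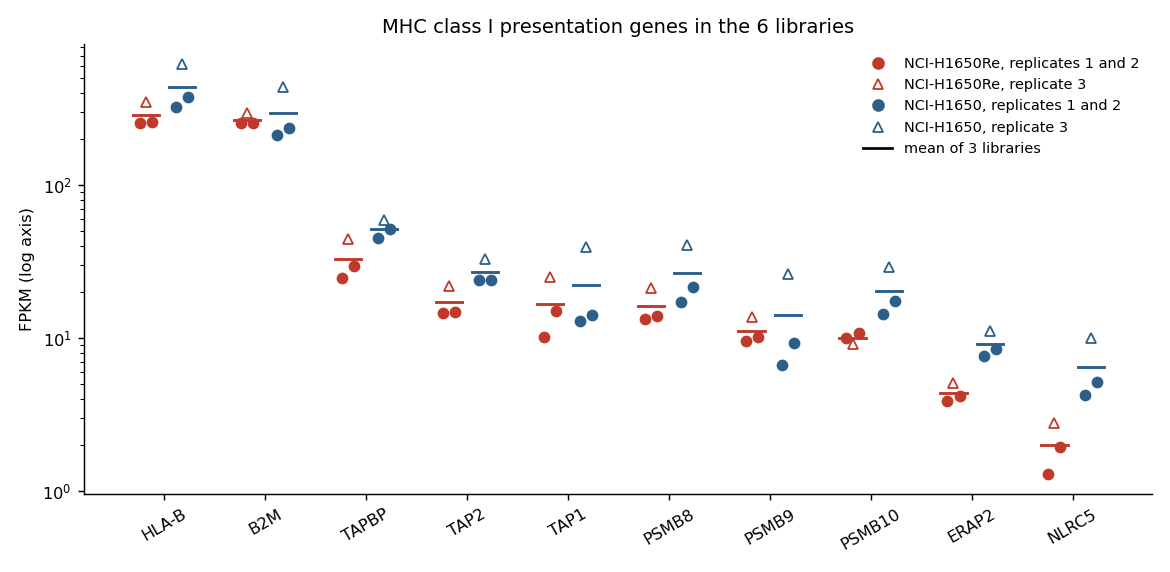
FPKM of the 10 genes on a log axis, with NCI-H1650Re (red) left of NCI-H1650 (blue); filled circles are replicates 1 and 2, open triangles are replicate 3 and bars are means of the 3 libraries. HLA-B and B2M stood above 200 FPKM in every library, NLRC5 was the lowest in either line, and the NCI-H1650 triangle was the highest library for each of the 10 genes.

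The count depended on single libraries. Leaving out NCI-H1650Re replicate 1 gave 3 lower genes, replicate 2 gave 1 and replicate 3 gave 6. Leaving out NCI-H1650 replicate 1, 2 or 3 gave 3, 2 or 3. The number of all tested genes that changed in either direction moved as well. In the same order it was 2923, 1898, 4478, 2386, 1785 and 3160, against 3587 with all libraries. Between 11757 and 11778 genes were tested in these fits. Without both replicate 3 libraries, which were higher than the others for most of these genes, 7 of the 10 were lower and none was higher, while of all tested genes 43.2% changed, 19.4% lower and 23.7% higher. HLA-B and PSMB8 were the 2 added. By the FDR in the authors' deposited table, 7 of the genes had a value that passed. Each had an FDR of at most 0.05 and was lower in NCI-H1650Re, as were 14.9% of the 12659 genes. That table marks NLRC5, PSMB10 and ERAP2 as down, as it does 4.27% of its genes, and 2.53% as up.

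**Figure D2:**
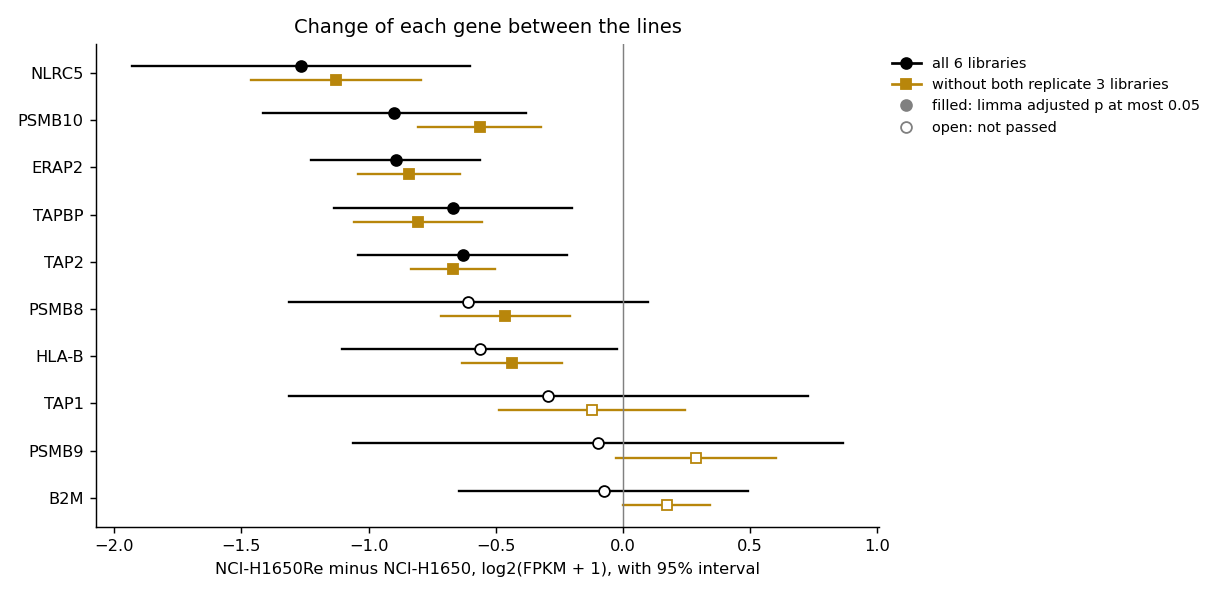
Difference of each gene on log2(FPKM + 1), NCI-H1650Re less NCI-H1650, with its 95% interval, from all 6 libraries (black circles) and without both replicate 3 libraries (yellow squares); filled symbols passed limma at an adjusted p of 0.05. NLRC5, at -1.27, was the farthest from 0, and B2M, PSMB9 and TAP1 did not pass in either fit.

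Most of the promoters hold letters of the interferon-stimulated response element, the motif to which IRF factors are known to bind. RefSeq promoters (GRCh38.p14, 250 bases before to 50 after a transcript start) were matched by symbol for 9 of the 10 genes, in 12 windows; NLRC5 is named only. The letters GAAA and GAAA with 2 bases between them, on either strand and with overlapping matches counted, were in a window of 7 genes, B2M, TAP1, TAP2, TAPBP, PSMB8, PSMB10 and ERAP2, and in none of the windows of HLA-B and PSMB9. They were in 3.57% of 35116 promoter windows, or in at least 1 window of 4.38% of 27305 genes. The 250 bases before the start are shown for genes that fell (PSMB10, TAPBP) and genes that did not pass (B2M, TAP1), so that the same motif can be seen in both; capitals mark those letters or their reverse complement. HLA-B is shown for its CRE-like core TGACG and its Y boxes CCAAT, known parts of the module through which NLRC5 acts, and there capitals mark those letters on either strand.
PSMB10 (chr16:67936851-67937100, minus strand): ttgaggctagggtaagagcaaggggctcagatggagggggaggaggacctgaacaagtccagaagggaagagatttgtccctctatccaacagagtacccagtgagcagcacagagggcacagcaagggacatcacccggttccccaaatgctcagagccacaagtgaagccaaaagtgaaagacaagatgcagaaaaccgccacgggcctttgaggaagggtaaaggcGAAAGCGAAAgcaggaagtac
TAPBP (chr6:33314079-33314328, minus strand): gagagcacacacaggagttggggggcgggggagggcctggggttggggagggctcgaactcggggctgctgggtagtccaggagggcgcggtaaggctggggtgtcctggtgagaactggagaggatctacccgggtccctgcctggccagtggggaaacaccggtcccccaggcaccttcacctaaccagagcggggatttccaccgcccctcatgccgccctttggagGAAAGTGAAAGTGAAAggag
B2M (chr15:44711267-44711516, plus strand): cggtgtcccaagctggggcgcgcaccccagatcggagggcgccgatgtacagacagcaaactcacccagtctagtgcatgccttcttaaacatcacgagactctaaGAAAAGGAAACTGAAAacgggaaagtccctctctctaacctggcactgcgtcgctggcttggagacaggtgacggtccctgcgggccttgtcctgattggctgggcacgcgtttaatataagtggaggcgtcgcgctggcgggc
TAP1 (chr6:32853705-32853954, minus strand): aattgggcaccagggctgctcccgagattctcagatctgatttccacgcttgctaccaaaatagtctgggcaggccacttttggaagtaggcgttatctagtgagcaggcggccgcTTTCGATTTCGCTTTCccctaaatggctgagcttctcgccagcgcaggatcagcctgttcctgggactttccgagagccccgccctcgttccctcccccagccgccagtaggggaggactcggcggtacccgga
HLA-B (chr6:31357180-31357429, minus strand): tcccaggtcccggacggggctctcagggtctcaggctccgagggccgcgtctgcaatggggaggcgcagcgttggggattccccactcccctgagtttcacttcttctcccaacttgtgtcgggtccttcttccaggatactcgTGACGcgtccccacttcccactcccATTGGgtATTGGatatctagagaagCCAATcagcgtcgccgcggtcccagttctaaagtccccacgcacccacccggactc
The first matched base lies 21 bases before the start in PSMB10, 20 in TAPBP, 144 in B2M and 134 in TAP1, where 2 matches overlap in each of TAPBP, B2M and TAP1. TAP1 and PSMB9 are transcribed away from each other from starts 488 bases apart, so the TAP1 matches also lie 354 and 360 bases before the PSMB9 start, outside the window searched for PSMB9. Of the other letters searched, TGACG was in windows of 5 of the 9 genes (24.6% of all windows), CCAAT in 4 (34.6%) and the NF-kB-like GGG and TTTCC with 2 bases between them in 3 (1.91%). A match describes these letters only; it does not show that a factor binds.

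HLA-B and B2M, the heavy chain and its partner, were the most abundant of the 10 in both lines. HLA-B was at 255, 260 and 348 FPKM in NCI-H1650Re replicates 1, 2 and 3, against 324, 376 and 614 in those of NCI-H1650. The lines overlapped, because NCI-H1650Re replicate 3 lay between NCI-H1650 replicates 1 and 2. The log2 change was -0.56 (SE 0.23, limma adjusted p = 0.104), -0.71 without NCI-H1650Re replicate 3 (limma adjusted p = 0.0492) and -0.44 without both replicate 3 libraries (limma adjusted p = 0.00540). B2M was at 253, 254 and 294 FPKM in NCI-H1650Re, against 214, 236 and 438 in NCI-H1650. Replicates 1 and 2 of NCI-H1650 were thus below all NCI-H1650Re libraries, and replicate 3 was above them. Its log2 change was -0.08 (95% interval -0.64 to 0.49, limma adjusted p = 0.836) and 0.17 without both replicate 3 libraries (limma adjusted p = 0.0946). The level of HLA-B relative to B2M in the same library, which no scaling of libraries can alter, was 1.01, 1.02 and 1.18 in NCI-H1650Re, against 1.51, 1.59 and 1.40 in NCI-H1650. The ratio did not overlap between the lines (difference in log2 ratio -0.49, exact two-sided permutation p = 0.1, the smallest that 3 against 3 libraries can give, and 0.2 adjusted over the 6 ratios compared). HLA class I genes are near-identical to each other in long stretches, so the authors' counting could split their reads, and HLA-B is uncertain to that extent. In GENCODE release 29 (GRCh38) HLA-B lies at chromosome 6, 31269491 to 31357188, a span that overlaps HLA-C, and B2M at chromosome 15, 44711487 to 44718877.

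Of the peptide transporter and its tapasin partner, TAP2 and TAPBP fell and TAP1 did not pass. TAP2 was at 14.5, 14.9 and 21.9 FPKM in NCI-H1650Re replicates 1, 2 and 3, against 23.9, 24.0 and 32.7 in NCI-H1650. TAPBP was at 24.7, 29.6 and 44.6 FPKM in NCI-H1650Re, against 44.8, 51.5 and 58.9 in NCI-H1650. For both genes the highest NCI-H1650Re library was replicate 3, and it stayed under the lowest NCI-H1650 library by a small margin. The log2 change was -0.63 for TAP2 (SE 0.18, limma adjusted p = 0.0318) and -0.67 for TAPBP (SE 0.20, limma adjusted p = 0.0405). Neither call held without any 1 library other than NCI-H1650Re replicate 3. The limma adjusted p of TAP2 was then 0.0810 and 0.115 when NCI-H1650Re replicate 1 or 2 was left out, and 0.0564, 0.0642 and 0.0824 when NCI-H1650 replicate 1, 2 or 3 was. That of TAPBP was 0.0901 and 0.129, and 0.0611, 0.113 and 0.112, in the same order. Without both replicate 3 libraries TAP2 was at a log2 change of -0.67 (limma adjusted p = 0.000461) and TAPBP at -0.81 (0.00114). TAP1 was at 10.2, 15.03 and 25.01 FPKM in NCI-H1650Re, against 12.97, 14.2 and 39.4 in NCI-H1650, so the lines were interleaved (log2 change -0.29, 95% interval -1.31 to 0.73, limma adjusted p = 0.641). The TAP1 to TAP2 ratio was 0.702, 1.01 and 1.14 in NCI-H1650Re, against 0.543, 0.592 and 1.20 in NCI-H1650, which overlapped (difference in log2 ratio 0.35, exact two-sided permutation p = 0.5, adjusted 0.6). TAP2 lies at chromosome 6, 32821833 to 32838780, TAP1 at 32845209 to 32853978 and TAPBP at 33299694 to 33314387 (GRCh38).

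The immunoproteasome subunits behaved unequally. PSMB10 was at 10.04, 10.8 and 9.18 FPKM in NCI-H1650Re replicates 1, 2 and 3, against 14.3, 17.5 and 29.2 in NCI-H1650. The NCI-H1650Re libraries were close together and all lay below those of NCI-H1650 (log2 change -0.90, SE 0.22, limma adjusted p = 0.0203). The call was lost without NCI-H1650Re replicate 2 (limma adjusted p = 0.0559) or NCI-H1650 replicate 2 (0.0512), and the change was -0.56 without both replicate 3 libraries (0.00440). It rested on 555, 631 and 452 counts in NCI-H1650Re, against 869, 923 and 1352 in NCI-H1650. PSMB8 was at 13.3, 14 and 21.4 FPKM in NCI-H1650Re, against 17.1, 21.5 and 40.7 in NCI-H1650, with NCI-H1650Re replicate 3 just under NCI-H1650 replicate 2. Its log2 change of -0.61 did not pass with all libraries (SE 0.30, limma adjusted p = 0.165) and was -0.46 without both replicate 3 libraries (0.0122). PSMB9 was at 9.57, 10.2 and 13.8 FPKM in NCI-H1650Re, against 6.68, 9.32 and 26.2 in NCI-H1650. Replicates 1 and 2 of NCI-H1650Re were above those of NCI-H1650, and NCI-H1650 replicate 3 was above all other libraries (log2 change -0.10, 95% interval -1.06 to 0.87, limma adjusted p = 0.873; 0.29 without both replicate 3 libraries, 0.121). In GENCODE, PSMB9 overlaps TAP1 and PSMB8 on the opposite strand. The labels do not say whether strand was used in counting, so shared reads of these 3 genes cannot be told apart. PSMB10 overlaps AC040162.1 and TAP2 overlaps AL669918.1, both protein-coding genes on the same strand that were not analysed here. Reads that PSMB10 and TAP2 share with them cannot be told apart either.

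Each immunoproteasome subunit takes the place of a constitutive catalytic subunit, PSMB8 that of PSMB5, PSMB9 that of PSMB6 and PSMB10 that of PSMB7. None of the 3 constitutive genes passed, with log2 changes of 0.17, -0.01 and 0.14, although PSMB5 and PSMB7 were each higher in all NCI-H1650Re libraries than in any of NCI-H1650. PSMB10 was at 0.0650, 0.0692 and 0.0610 of PSMB7 in NCI-H1650Re, against 0.0979, 0.123 and 0.226 in NCI-H1650. The lines did not overlap (difference in log2 ratio -1.10, exact two-sided permutation p = 0.1, adjusted 0.2). PSMB8 was at 0.270, 0.270 and 0.400 of PSMB5 in NCI-H1650Re, against 0.359, 0.475 and 0.931 in NCI-H1650 (-0.81, exact permutation p = 0.2, adjusted 0.3). PSMB9 was at 0.0825, 0.0888 and 0.108 of PSMB6 in NCI-H1650Re, against 0.0508, 0.0840 and 0.218 in NCI-H1650 (-0.08, exact permutation p = 0.9). In every library the constitutive transcript was the more abundant of the pair, and only in NCI-H1650 replicate 3 did PSMB8 come near PSMB5. Of the 12 constitutive subunits, proteasome activators and the assembly factor POMP, all were tested, 1 was higher (PSMB2, log2 change 0.25) and none was lower. Their median log2 change was 0.08. Without both replicate 3 libraries 4 were higher and none lower, while of all tested genes 23.7% were higher and 19.4% lower. The 4 were PSMB2 and the activators PSME1, PSME2 and PSME3, the activators named after their values were seen. PSME1 was then at a log2 change of 0.26 (limma adjusted p = 0.0343) and PSME2 at 0.36 (0.00608).

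**Figure D3:**
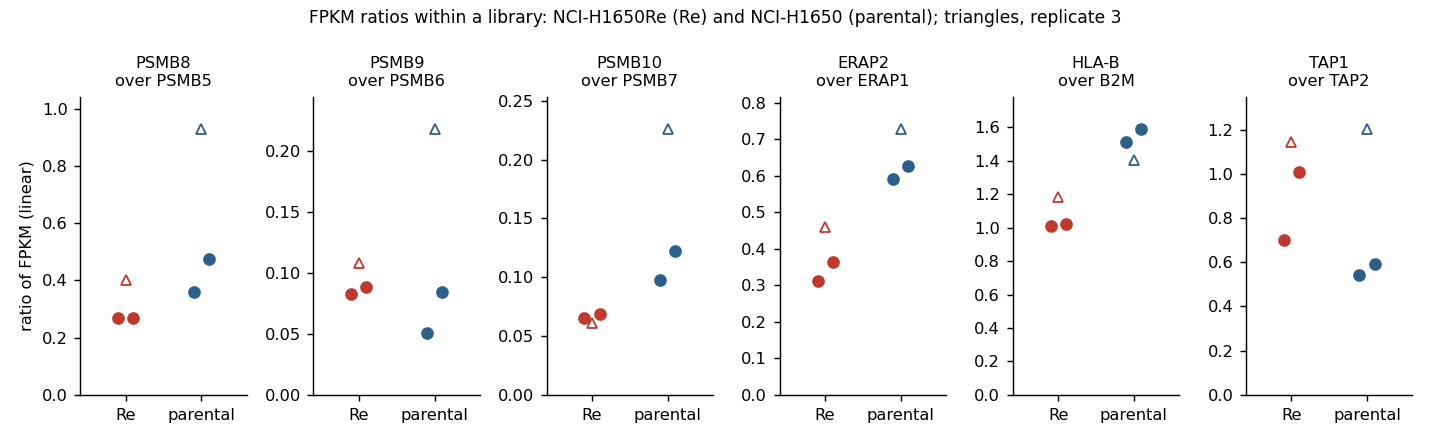
Ratio of FPKM of each named pair of genes within a library, on linear axes from 0, for NCI-H1650Re (red, left in each panel) and NCI-H1650 (blue); circles are replicates 1 and 2 and open triangles replicate 3. The lines did not overlap for PSMB10 over PSMB7, ERAP2 over ERAP1 and HLA-B over B2M, and they overlapped for the other 3 pairs.

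ERAP2, the peptidase that trims peptides in the endoplasmic reticulum, had the smallest standard error of the 5 lower genes. It was at 3.90, 4.17 and 5.11 FPKM in NCI-H1650Re replicates 1, 2 and 3, against 7.64, 8.42 and 11.2 in NCI-H1650. All NCI-H1650Re libraries were below all NCI-H1650 libraries (log2 change -0.89, SE 0.14, limma adjusted p = 0.00395). The call held without any 1 of the 6 libraries, with limma adjusted p from 0.000408 to 0.0216 over the 14 alternatives run. The gene rested on 452 to 527 counts per library in NCI-H1650Re and 930 to 1085 in NCI-H1650. Its partner ERAP1 was at 12.5, 11.5 and 11.1 FPKM in NCI-H1650Re, against 12.9, 13.4 and 15.4 in NCI-H1650, and did not pass (log2 change -0.23, limma adjusted p = 0.0798). The ERAP2 to ERAP1 ratio was 0.312, 0.363 and 0.459 in NCI-H1650Re, against 0.592, 0.627 and 0.729 in NCI-H1650 (difference in log2 ratio -0.79, exact two-sided permutation p = 0.1, adjusted 0.2). ERAP2 lies at chromosome 5, 96875939 to 96919716 (GRCh38).

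NLRC5, the class I transactivator, had the largest fall of the 10 genes and the lowest level. It was at 1.3, 1.95 and 2.77 FPKM in NCI-H1650Re replicates 1, 2 and 3, against 4.23, 5.19 and 10.01 in NCI-H1650. The highest NCI-H1650Re library was below the lowest of NCI-H1650 (log2 change -1.27, SE 0.29, limma adjusted p = 0.0142). The call was lost without NCI-H1650Re replicate 2 (limma adjusted p = 0.0512), and held under the other 13 alternatives. The levels rested on 180, 287 and 342 counts in NCI-H1650Re and 644, 685 and 1161 in NCI-H1650. In the authors' deposited table its log2 fold change was -1.72 and its FDR 4.07e-07. NLRC5 lies at chromosome 16, 56989485 to 57083531, and PSMB10 at chromosome 16, 67934502 to 67937087 (GRCh38).

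Replicate 3 was high for these genes in both lines, and more so in NCI-H1650. Summed over the 10 genes, FPKM was 595, 614 and 786 in NCI-H1650Re replicates 1, 2 and 3, against 669, 764 and 1300.1 in NCI-H1650. In NCI-H1650Re replicate 3 stood above the mean of the other libraries for every gene but PSMB10, by up to 1.98 times for TAP1, while PSMB10 was at 0.883 times. In NCI-H1650 it did so for all 10 genes, from 1.22 times for TAPBP to 3.27 times for PSMB9, 2.90 for TAP1 and 2.13 for NLRC5. The median shift over the 10 genes was 0.49 in NCI-H1650Re and 0.90 in NCI-H1650 on the log2 scale, against -0.02 in each line over all genes tested. Between the 2 replicate 3 libraries alone, each of the 10 genes was lower in NCI-H1650Re, from -0.39 for TAPBP to -1.57 for PSMB10 on the log2 scale. These are 1 library per line and were not tested. Over the 6 libraries the 45 pairs among the 10 genes had Pearson correlations of 0.43 to 0.99, with a median of 0.85; they share libraries, lines and the high NCI-H1650 replicate 3.

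**Figure D4:**
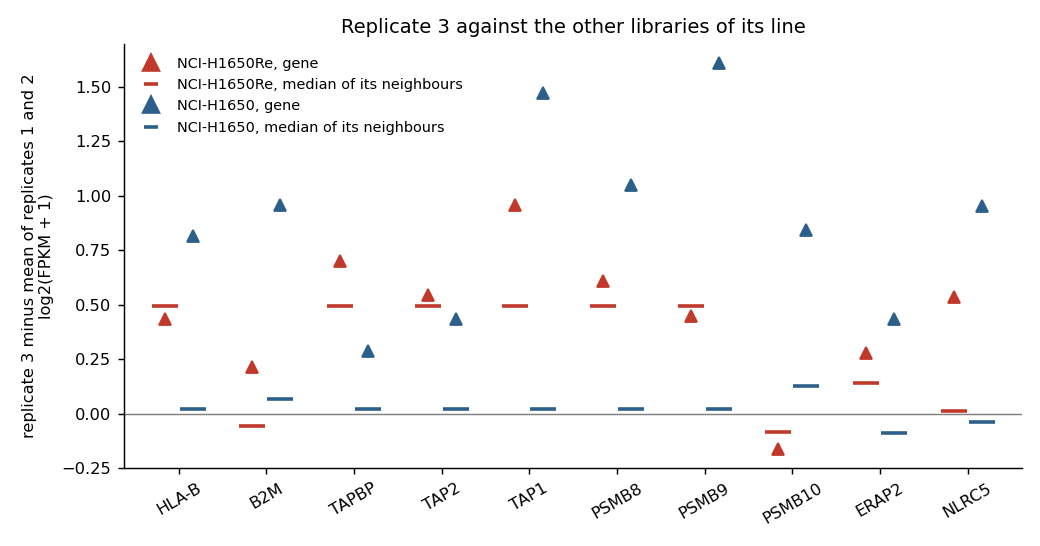
Replicate 3 minus the mean of replicates 1 and 2 of the same line on log2(FPKM + 1), for each gene (triangles) and as the median of its neighbours on the chromosome (bars), NCI-H1650Re in red left of NCI-H1650 in blue. For the 6 genes from HLA-B to TAPBP the neighbours of NCI-H1650Re replicate 3 were themselves up by 0.49, whereas those of NCI-H1650 replicate 3 were at 0.02.

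HLA-B, TAP1, TAP2, TAPBP, PSMB8 and PSMB9 lie within 1.96 Mb of chromosome 6, from HLA-B to TAPBP, and their neighbours there were not level between the lines. Of 44 other tested genes between the starts of HLA-B and TAPBP, 8 were lower and none higher in NCI-H1650Re (median log2 change -0.27). Without both replicate 3 libraries 29 were lower and 1 higher (median -0.39). Their summed FPKM was 1535, 1687 and 2198 in NCI-H1650Re replicates 1, 2 and 3, against 2323, 2234 and 2234 in NCI-H1650, so that NCI-H1650Re replicate 3 alone was near the level of NCI-H1650. In NCI-H1650Re replicate 3 was above both other libraries for 39 of the 44 genes, and in NCI-H1650 for 23. The share of all tested genes with this pattern is not given here. The median log2 shift of replicate 3 over the 44 was 0.49 in NCI-H1650Re and 0.02 in NCI-H1650, against -0.02 in each line over all genes tested. The nearest tested genes on either side of the TAP and PSMB genes were picked by place after the data were seen. PBX2, a homeodomain factor, was at 11.2, 13.1 and 19.8 FPKM in NCI-H1650Re, against 20.2, 21.6 and 23.7 in NCI-H1650. The chromatin reader BRD2 was at 30.6, 34.8 and 47.6, against 45.2, 46.6 and 49.6. Of the pair PBX2 passed (log2 change -0.58, limma adjusted p = 0.0455), while BRD2 overlapped between the lines and did not (-0.34, 0.116). No neighbour had a lower log2 change than TAPBP. For TAP2 and PSMB8 there were 2 each, for HLA-B 5, for TAP1 19 and for PSMB9 32. With both replicate 3 libraries left out more neighbours lay below each gene. The numbers were 2 for TAPBP, 6 for TAP2, 16 for PSMB8, 18 for HLA-B, 36 for TAP1 and 42 for PSMB9. Each of the 6 genes thus lay inside the range of its neighbours there, including TAPBP, TAP2, PSMB8 and HLA-B, which passed in that fit. In NCI-H1650 replicate 3 no neighbour was up as much as TAP1, PSMB8 or PSMB9, while 2 were up more than HLA-B, 4 more than TAP2 and 5 more than TAPBP.

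The shift was not confined to the HLA-B to TAPBP interval. In steps of 10 Mb along chromosome 6, chosen after the data were seen, 79 of 116 other genes from 30 to 40 Mb were lower without both replicate 3 libraries and 1 was higher (median log2 change -0.38). From 10 to 20 Mb 16 of 31 were lower and 1 higher, and from 40 to 50 Mb 27 of 64 were lower and 11 higher. From 50 to 60 Mb 9 of 18 were lower and 1 higher (median -0.25). From 20 to 30 Mb 10 of 49 were lower and 9 higher (median -0.05). From 0 to 10 Mb 9 of 30 were lower and 9 higher (median 0.04). NCI-H1650Re replicate 3 was up on replicates 1 and 2 by a median of 0.46 from 30 to 40 Mb, and NCI-H1650 replicate 3 by 0.01. Between the replicate 3 libraries alone the genes of that step differed by a median of 0.06. The part of this in the lower TAP2, TAPBP, PSMB8 and HLA-B was not tested.

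**Figure D5:**
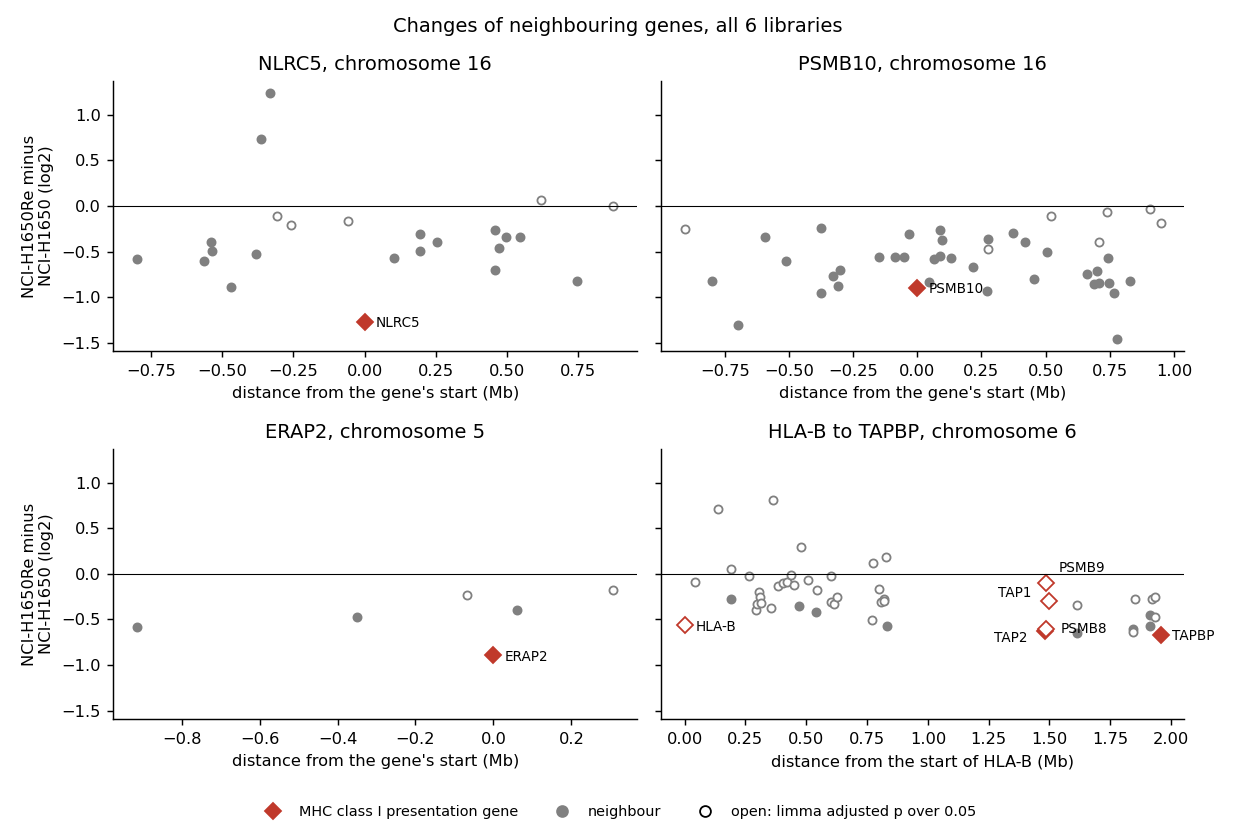
Log2 change (NCI-H1650Re minus NCI-H1650, all 6 libraries) of the MHC class I presentation genes (red diamonds) and their tested neighbours (grey circles) by distance in Mb from the named gene's start; open symbols had a limma adjusted p over 0.05. Neighbours of NLRC5 and PSMB10 lay mostly under 0, with NLRC5 below all 23 of its neighbours and PSMB10 among the 42 of its own.

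NLRC5, PSMB10 and ERAP2 also stood among lowered neighbours. Within 1 Mb of the NLRC5 start 16 of 23 other tested genes were lower and 2 higher, with a median log2 change of -0.39, and none was as low as NLRC5. Within 1 Mb of PSMB10 35 of 42 were lower and none higher (median -0.57), and 5 had a lower value than PSMB10. In the fit without both replicate 3 libraries 18 of 40 tested had a lower value than PSMB10, which was at -0.56 against a neighbour median of -0.53. Within 1 Mb of ERAP2 3 of 5 were lower (median -0.40), ERAP2 being lower than each of them. Within 1 Mb of B2M 2 of 15 were lower and 5 higher (median -0.05). Of the nearest tested genes on either side, again picked by place, PSKH1, a kinase gene beside PSMB10, was at 11.8, 12.1 and 12.4 FPKM in NCI-H1650Re, against 20.0, 22.8 and 24.4 in NCI-H1650. CPNE2, a copine gene beside NLRC5, was at 35.6, 33.2 and 32.0, against 49, 51.3 and 50.5. On their other sides SLC12A4 also fell (-0.31, limma adjusted p = 0.0431) and HERPUD1 did not pass (-0.17, 0.407). PSMB10 was up in replicate 3 of NCI-H1650 by 0.84 on the log2 scale, against a neighbour median of 0.12 and more than any of the 42. The part of the neighbourhood in the falls of NLRC5, PSMB10 and ERAP2 was not tested.

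Of the other heavy chains and partners of class I loading, 15 genes were listed, 12 were tested, 2 were lower and 1 was higher (median log2 change -0.14), and 3 were lower and 1 was higher without both replicate 3 libraries. The oxidoreductase PDIA3 of the loading complex was at 114, 122 and 120.3 FPKM in NCI-H1650Re, against 148, 148 and 137 in NCI-H1650 (log2 change -0.28, SE 0.07, limma adjusted p = 0.0167). LNPEP, a relative of ERAP2 and its neighbour on chromosome 5, fell by 0.40 (limma adjusted p = 0.00781). TAPBPL, the peptide editor TAPBPR, was higher, at 13.6, 12.7 and 13.3 FPKM in NCI-H1650Re, against 5.85, 8.29 and 10.8 in NCI-H1650 (log2 change 0.64, SE 0.17, limma adjusted p = 0.0279). It thus differed in direction from its relative TAPBP, and the lines overlapped for neither. HLA-E, the ligand of NKG2A, was at 33.7, 45.9 and 58.3 FPKM in NCI-H1650Re, against 57.1, 63.7 and 98.9 in NCI-H1650 (log2 change -0.65, limma adjusted p = 0.0778, and 0.0108 without both replicate 3 libraries). The chaperones CALR (-0.15) and CANX (-0.08), and ERAP1, IRF2 (0.09), SPPL3 (-0.14), HM13 (0.04) and THOP1 (0.08) did not pass. HLA-C, HLA-F and HLA-G were not analysed here.

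Genes of the interferon gamma pathway and the class I promoter factors mostly did not pass. Of 26 listed, 23 were tested, 2 were higher and none lower (median log2 change 0.05). The numbers were 5 higher and 2 lower without both replicate 3 libraries. The higher ones were the kinase JAK2, at 3.32, 2.98 and 3.73 FPKM in NCI-H1650Re, against 2.30, 1.76 and 2.22 in NCI-H1650 (log2 change 0.49, limma adjusted p = 0.0130), and the NF-kB subunit RELA (0.25, limma adjusted p = 0.0273). IRF1, singled out after its values were seen, is a factor well known to raise class I genes. IRF1 was at 9.70, 10.07 and 9.20 FPKM in NCI-H1650Re, against 7.90, 8.82 and 13.9 in NCI-H1650, with NCI-H1650 replicate 3 above and the other NCI-H1650 libraries below all of NCI-H1650Re (-0.04, limma adjusted p = 0.888). Of 18 genes known to lower class I expression, 15 were tested, 3 were higher and 1 was lower (median 0.05), and 3 were higher and 3 lower without both replicate 3 libraries. MYC rose (log2 change 0.57, limma adjusted p = 0.00481), as did the methyltransferase DNMT3B (0.40, 0.0294) and TRAF3 (0.34, 0.0169), while the ubiquitin ligase WWP2 fell (-0.70, 0.00112). EZH2, the catalytic subunit of the polycomb complex PRC2, did not pass (0.04, limma adjusted p = 0.759).

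Of 15 class II presentation genes 4 were tested, and HLA-DMA (log2 change -0.64, limma adjusted p = 0.0264) and the protease LGMN (-0.29, 0.0175) were lower. Both were also lower without both replicate 3 libraries, where CD74, named after its values were seen, was higher (0.91, limma adjusted p = 0.00217). Of 15 ligands of natural killer and T cells 13 were tested, 3 were lower and 1 was higher (median -0.11). The balance turned without both replicate 3 libraries, with 5 higher (NECTIN2, and MICB, RAET1G, PDCD1LG2 and LGALS9, named after their values were seen) and 2 lower of 12 tested, and ULBP3 did not pass (limma adjusted p = 0.0604). VTCN1, the T cell inhibitor B7-H4, was at 4.80, 5.27 and 9.53 FPKM in NCI-H1650Re, against 16.8, 17.8 and 20.9 in NCI-H1650 (log2 change -1.42, limma adjusted p = 0.00314). CD47 (-0.39, limma adjusted p = 0.0352) and ULBP3 (-0.32, 0.0316) were lower, and NECTIN2, a DNAM-1 ligand, was higher (0.71, 0.00222). CD47 is a signal against phagocytosis and ULBP3 a ligand of NKG2D.

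The genes most like the 10 in their pattern were those with the highest Pearson correlation over the 6 libraries with the mean of the 10, each scaled to unit SD. They were the membrane protease gene ST14 (r = 0.996), PLBD2 (0.996), the interferon-induced GTPase gene GBP3 (0.995), an unannotated locus (0.994) and the transporter gene SLCO4A1 (0.993). GBP3 was at 7.14, 7.82 and 10.1 FPKM in NCI-H1650Re, against 9.97, 11.2 and 17.01 in NCI-H1650, and none of the 5 passed limma with all 6 libraries. Without both replicate 3 libraries ST14, GBP3, the unannotated locus and SLCO4A1 were lower (limma adjusted p = 0.00560, 0.00596, 0.0343 and 0.00186). PLBD2 did not pass there either (0.148). With 6 libraries, and NCI-H1650 replicate 3 far above the others, such correlations are a description.

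Depth was set side by side from the ratio of counts to FPKM in 207 genes with at least 200 counts in every library. Relative to NCI-H1650 replicate 1 it was 0.911, 0.967 and 0.811 in NCI-H1650Re replicates 1, 2 and 3, and 0.868 and 0.762 in NCI-H1650 replicates 2 and 3. Of 11 lung adenocarcinoma and epithelial markers 6 were tested, 4 of them lower in NCI-H1650Re, namely EPCAM (log2 change -0.50), CDH1 (-0.82), KRT8 (-0.46) and KRT19 (-3.59). KRT7, at 961 to 1102 FPKM in NCI-H1650Re and 712 to 942 in NCI-H1650, and KRT18 did not pass, and both were higher without both replicate 3 libraries (limma adjusted p = 0.00215 and 0.0104). The lung markers NKX2-1, NAPSA, SFTPB, SFTPC and SFTPA1 were not analysed here. Of 10 small cell lung cancer markers 4 were tested. CHGA was higher (limma adjusted p = 0.0101), and SYP, DLL3 and UCHL1 did not pass; without both replicate 3 libraries SYP and DLL3 were higher too. NEUROD1, POU2F3, INSM1, NCAM1 and GRP were not analysed here, so the label post-SCLC was not checked against these genes. Of 14 leukocyte markers 1 was tested, CD14, at 0.130, 0.170 and 0.290 FPKM in NCI-H1650Re, against 1.09, 1.86 and 1.72 in NCI-H1650. Of 10 fibroblast and endothelial markers 2 were tested, COL3A1 (higher, log2 change 1.55) and COL1A1 (not passed), and their summed FPKM was 23.0 to 40.1 in NCI-H1650Re and 10.1 to 12.96 in NCI-H1650. The part of these markers in the results above was not tested, and in bulk RNA fewer cells of a type cannot be told apart from less RNA per cell.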

How the data were processed

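The authors computed FPKM for 12659 genes and deposited them for each library; their tools are HISAT2, Bowtie2, RSEM and DESeq2, without versions, per the submitters' processing notes. Only the mouse build mm10 is named there, whereas the identifiers are human Ensembl ones, and for the human build the sources used here name none. For the 860 genes marked up or down the authors deposited read counts, which gave the depth behind NLRC5, PSMB10 and ERAP2. Per the file headers, the tables also hold the authors' log2 fold change and FDR, an adjusted p-value. The deposited tables held identical FPKM values.

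The main test was limma 3.58.1 in R 4.3.3 on log2(FPKM + 1) with a variance trend and the line as only term, over genes whose mean reached 1 FPKM in NCI-H1650Re or NCI-H1650, adjusted by Benjamini-Hochberg at 0.05. Within-library ratios were compared by exact two-sided permutation. The fold changes understate the change of low genes. Ensembl identifiers gave GRCh38 positions for 11909 genes in GENCODE release 29, and promoters from RefSeq. On simulated data of 11764 genes for NCI-H1650Re against NCI-H1650, limma found 34 of 50 genes changed by 0.5 on the log2 scale, 42 of 50 by 1, 49 of 50 by 2 and 50 of 50 by 3, and called 6 unchanged genes.

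The 10 genes and all lists were chosen with earlier results of these data known. Genes were named by a fixed rule: the 10 genes, partners in the ratios, tested genes of class I loading, up to 4 genes past the threshold of each other list, and the 5 genes most like the 10; exceptions are stated, and some listed items are not reported here. Alternatives were a replicate block, quantile or median-of-ratios scaling, pseudocount 0.1, a 5 FPKM filter or none, limma without its variance trend, each library left out in turn, and both replicate 3 libraries left out. Figures were drawn with matplotlib 3.10.9 in Python 3.11.15.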

Additional observations from a re-analysis of the deposited data

How the results depend on the processing

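With 3 libraries per line, single libraries set which of the 10 genes passed limma. Leaving out each library in turn gave 1 to 6 lower genes, against 5 with all libraries, and 1785 to 4478 changed genes of all tested, against 3587. No gene of the 10 was higher under any alternative. Quantile normalization, median-of-ratios scaling, pseudocount 0.1, a 5 FPKM filter, no filter and no variance trend each left 5 lower genes. Without both replicate 3 libraries the number was 7, and it was 6 to 7 under the same alternatives there. Of 140 recomputed log2 changes 117 kept their direction and their side of the threshold, 5 passed newly, 13 no longer passed and 5 changed sign. The changes of sign were those of genes that did not pass: B2M, TAP1 and PSMB9 were at 0.24, 0.20 and 0.44 without NCI-H1650 replicate 3 (limma adjusted p = 0.102, 0.674 and 0.126), and B2M and PSMB9 at 0.17 and 0.29 without both replicate 3 libraries. Leaving out each library in turn gave -0.27 to 0.24 for B2M, -0.61 to 0.20 for TAP1 and -0.47 to 0.44 for PSMB9. The cause was not tested. Leaving out libraries moved the differences in log2 ratio of PSMB8 over PSMB5 between -1.11 and -0.42, PSMB9 over PSMB6 between -0.55 and 0.50, PSMB10 over PSMB7 between -1.36 and -0.71, ERAP2 over ERAP1 between -0.94 and -0.66, and TAP1 over TAP2 between 0.14 and 0.72. HLA-B over B2M lay between -0.61 and -0.45, and only its -0.61, without both replicate 3 libraries, moved by more than the SD between replicates, which is small for that ratio.

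With the replicate number as a block, 7 of the 10 genes were lower, HLA-B (limma adjusted p = 0.0123) and PSMB8 (0.0154) besides the 5, and 3522 genes changed in all. The numbers were not taken to pair the libraries: the deviations from the line means correlated at 0.17, -0.04 and 0.21 for numbers 1, 2 and 3, and NCI-H1650Re replicate 1 correlated more with NCI-H1650 replicate 2 (0.23). FPKM without counts gives no sampling error for the other 7 genes, so depth limits were not computed for them.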
